A study of Homo sapiens with 16 samples.

Results

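The subject is 44 genes of the cell cycle and of DNA replication that are known targets of E2F transcription factors, taken by name from a list, out of 20090 protein-coding genes on chromosomes 1 to 22 and X. The rule uses no measured value, although the list was drawn up with earlier results of these data known. They are 8 cyclins, CDKs and their phosphatase, 12 factors of replication origins, 5 genes of DNA synthesis, 3 genes of transcription and checkpoint control, 10 of mitotic kinases and the spindle checkpoint, 5 of centromeres and motors, and the proliferation marker MKI67. Each gene was followed over its body with 5 kb on each side, and at its start, the 1 kb on each side of the 5′ end of the gene (hg19, GENCODE version 44).

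E2F factors bind the promoters of genes that a cell needs to enter S phase, and the retinoblastoma protein holds them in check until cyclin-dependent kinases phosphorylate it. Genes of G2 and mitosis are controlled later in the cycle, in large part through a promoter element called CHR and through CCAAT boxes bound by NF-Y. Histone H3 monomethylated at lysine 4 (H3K4me1) marks enhancers and the flanks of active promoters, and histone H3 trimethylated at lysine 27 (H3K27me3) is the repressive mark of Polycomb complexes that KDM6B removes. Cell cycle genes are active in dividing tumour cells and are as a rule free of H3K27me3.

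The data were 16 CUT&Tag libraries of BE2C cells, a human neuroblastoma line with amplified MYCN, in which an antibody to a mark tethers a transposase that tags the DNA beside it. For each of both marks, 2 libraries came from cells given siKDM6B33, an siRNA against KDM6B, for 72 h, and 2 from cells given the control siRNA siCtrl. A second experiment gave cells GSK-J4 at 2.5 µM, which inhibits the KDM6 demethylases, or 0.1% DMSO, for 72 h, again with 2 libraries a mark and group. The model is a single cell line and a single siRNA, and KDM6B protein or RNA cannot be read from these libraries, so the knockdown itself was not checked here. The study calls the replicates biological, and the labels do not say whether they were separate cultures. A change in the share of cells that carry a mark and a change in its amount in every cell cannot be told apart.

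Each library came as a list of broad regions, called islands, and a list of narrow peaks. Libraries held 17765 to 24917 islands for H3K4me1 and 7175 to 16676 for H3K27me3. The genome background, in tags over a base, rises with depth. For H3K4me1 it was 0.0849 to 0.0902 in siCtrl, 0.105 to 0.107 in siKDM6B33, 0.0483 to 0.0569 in DMSO and 0.0547 to 0.0559 in GSK-J4. For H3K27me3 it was 0.0298 to 0.0539. Replicate 1 of GSK-J4 for H3K27me3 stood apart, with 16676 islands against 8006 in replicate 2 and 7175 and 7398 in DMSO. The neuroblastoma markers PHOX2A, HAND2, GATA3, ISL1, TH, DBH and MYCN carried H3K4me1 islands in every library of that mark. MYCN, which is amplified in this line, was covered over the same 95.6% of its window in all 16 libraries of both marks. The part of the extra copies in this value was not tested. Of the markers of other cell types, PTPRC, CD3E and ALB carried neither mark, KRT5 carried H3K27me3 alone, and MYOD1 carried H3K27me3 in every library and H3K4me1 in some.

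The promoters of 8 of the genes are shown because the H3K4me1 results turn on them. A promoter here is 250 bp before and 50 bp after the start of the MANE Select transcript, 5′ to 3′ on the strand of the gene, in hg19. Capitals mark E2F cores, the CHR core TTTGAA and the CCAAT box, on either strand, so some appear as their reverse complement, and neighbouring matches can overlap. The E2F core was searched as TTCCCGC and, with other letters in the middle, as TTCGCGC, and likewise as TTGCCGC, or else as TTGGCGC. CDC20 (chr1:43824402-43824701, plus strand), CDK1 (chr10:62537986-62538285, plus strand), KIF20A (chr5:137514551-137514850, plus strand), AURKA (chr20:54967222-54967521, minus strand), MAD2L1 (chr4:120987954-120988253, minus strand) and MCM7 (chr7:99698971-99699270, minus strand) had more H3K4me1 after knockdown. BUB1 (chr2:111435591-111435890, minus strand) and CCNE1 (chr19:30302648-30302947, plus strand) had no island of this mark in either knockdown library.
CDC20: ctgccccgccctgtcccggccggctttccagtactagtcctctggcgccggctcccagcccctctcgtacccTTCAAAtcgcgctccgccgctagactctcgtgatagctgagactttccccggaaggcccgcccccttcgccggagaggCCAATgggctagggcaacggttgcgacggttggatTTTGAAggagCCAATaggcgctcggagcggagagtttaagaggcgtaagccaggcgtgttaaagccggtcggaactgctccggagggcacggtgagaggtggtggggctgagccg
CDK1: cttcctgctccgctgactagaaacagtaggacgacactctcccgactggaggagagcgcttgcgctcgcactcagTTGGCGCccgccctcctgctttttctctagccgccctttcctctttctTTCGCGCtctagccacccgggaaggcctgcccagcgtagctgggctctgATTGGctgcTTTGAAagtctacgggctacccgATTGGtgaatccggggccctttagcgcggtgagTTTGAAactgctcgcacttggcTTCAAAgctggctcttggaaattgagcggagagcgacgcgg
KIF20A: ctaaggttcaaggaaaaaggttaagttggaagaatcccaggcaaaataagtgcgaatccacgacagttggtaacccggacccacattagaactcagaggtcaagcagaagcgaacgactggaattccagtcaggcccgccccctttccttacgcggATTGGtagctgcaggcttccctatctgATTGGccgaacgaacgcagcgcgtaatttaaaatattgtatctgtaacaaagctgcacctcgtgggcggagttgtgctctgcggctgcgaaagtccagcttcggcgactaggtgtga
AURKA: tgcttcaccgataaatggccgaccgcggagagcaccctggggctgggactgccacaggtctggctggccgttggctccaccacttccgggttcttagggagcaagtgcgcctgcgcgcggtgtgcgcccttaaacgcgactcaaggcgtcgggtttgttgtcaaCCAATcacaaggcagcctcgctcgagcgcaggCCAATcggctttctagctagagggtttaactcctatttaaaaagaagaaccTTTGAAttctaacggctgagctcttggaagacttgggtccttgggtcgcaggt
MAD2L1: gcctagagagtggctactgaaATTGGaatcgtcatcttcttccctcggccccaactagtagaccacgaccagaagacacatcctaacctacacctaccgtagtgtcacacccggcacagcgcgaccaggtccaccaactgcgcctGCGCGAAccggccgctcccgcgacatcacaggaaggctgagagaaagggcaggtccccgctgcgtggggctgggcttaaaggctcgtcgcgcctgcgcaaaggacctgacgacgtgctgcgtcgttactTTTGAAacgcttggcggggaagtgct
MCM7: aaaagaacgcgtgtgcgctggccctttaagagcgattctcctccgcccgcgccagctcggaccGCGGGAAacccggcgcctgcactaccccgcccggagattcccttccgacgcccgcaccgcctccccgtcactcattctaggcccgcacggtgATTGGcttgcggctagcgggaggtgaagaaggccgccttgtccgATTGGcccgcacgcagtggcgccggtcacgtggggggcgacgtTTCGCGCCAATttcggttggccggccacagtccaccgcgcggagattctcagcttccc
BUB1: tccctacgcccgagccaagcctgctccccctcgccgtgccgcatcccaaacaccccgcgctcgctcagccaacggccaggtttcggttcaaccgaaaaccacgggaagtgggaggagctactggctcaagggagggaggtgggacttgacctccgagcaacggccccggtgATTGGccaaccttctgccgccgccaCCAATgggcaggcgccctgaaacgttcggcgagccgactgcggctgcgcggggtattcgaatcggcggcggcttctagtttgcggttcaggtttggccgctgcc
CCNE1: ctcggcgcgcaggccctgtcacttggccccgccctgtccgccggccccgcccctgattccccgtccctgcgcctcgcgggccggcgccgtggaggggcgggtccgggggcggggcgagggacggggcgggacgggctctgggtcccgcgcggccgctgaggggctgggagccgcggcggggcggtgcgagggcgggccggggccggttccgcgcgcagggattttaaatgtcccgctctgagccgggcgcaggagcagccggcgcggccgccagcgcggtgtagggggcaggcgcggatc

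Of the 44 promoters, 21 (47.7%) held an E2F core, against 16.9% of all 20090. A CHR core stood in 17 (38.6%, against 11.6%) and a CCAAT box in 34 (77.3%, against 35.9%). Both an E2F core and a CCAAT box stood in 18 (40.9%, against 6.42%). By GC content of at least 50% and an observed over expected CpG ratio of at least 0.6, 42 of the 44 (95.5%) were CpG-rich, against 65.1% of all promoters. MCM6, a subunit of the replicative helicase, held 4 E2F core matches, and MCM3, MCM4, MCM5 and MCM7 held 3 each. Matches on both strands were counted separately. Those of MCM6 overlap in pairs, and some of those in MCM5 and MCM7 overlap as well, while those of MCM3 and MCM4 do not. CCNB2, CENPF and TOP2A held 4 CCAAT boxes each, and CDK1 held 2 E2F cores, 3 CHR cores and 2 CCAAT boxes. A match is a run of letters and not a measured site.

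**Figure D1:**
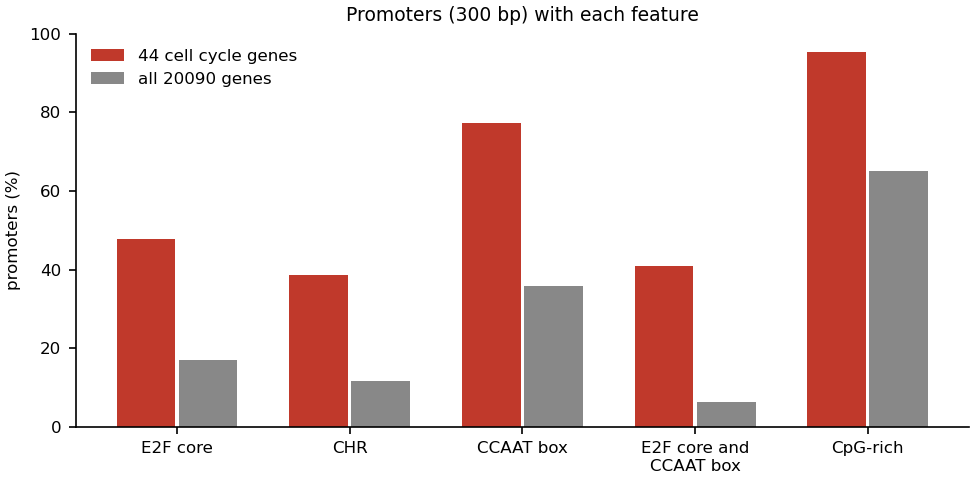
Percent of promoters (y axis) that held an E2F core, a CHR core, a CCAAT box, an E2F core together with a CCAAT box, or a CpG-rich sequence, for the 44 genes (red) and all genes (grey). Each feature stood in a larger share of the 44 promoters, such as 77.3% against 35.9% for the CCAAT box.

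The main comparison asked where H3K4me1 lay at these genes once KDM6B was depleted. An H3K4me1 island met the start of 11 and 10 of the 44 genes in the siCtrl libraries, and of 40 and 39 in the siKDM6B33 libraries. Over all genes the share was 23.8% and 24.1% in siCtrl and 55.6% in each siKDM6B33 library, so the 44 genes stood at the level of all genes in the controls and above it after knockdown. A start was called gained where both treated libraries and neither control had an island there, and lost in the reverse case. It was gained at 26 of 44 genes (59.1%), where 29.1% of all genes were called, and lost at none, where 0.752% were called. Of the 31 genes without a start island in either control, 26 (83.9%) gained one, against 39.5% of all such genes. Among CpG-rich promoters, 25 of 42 gained one (59.5%), against 39.4%.

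With 2 libraries against 2, an exact two-sided permutation test of 1 gene cannot give a p under 0.33, so no p is given for single genes. Calls rest on groups that did not overlap. Knockdown libraries also had a higher genome background than siCtrl, and islands covered 114 and 115 Mb in them against 98.6 and 103 Mb. The part of this in the result was not tested, but with the 4 lists trimmed to an equal covered length 20 of the 26 starts were still gained, which is 45.5% of the 44 genes, against 23.3% of all genes trimmed in the same way. The 6 that were not are CCNB2, CDK2, ORC1, GINS2, AURKB and BIRC5.

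**Figure D2:**
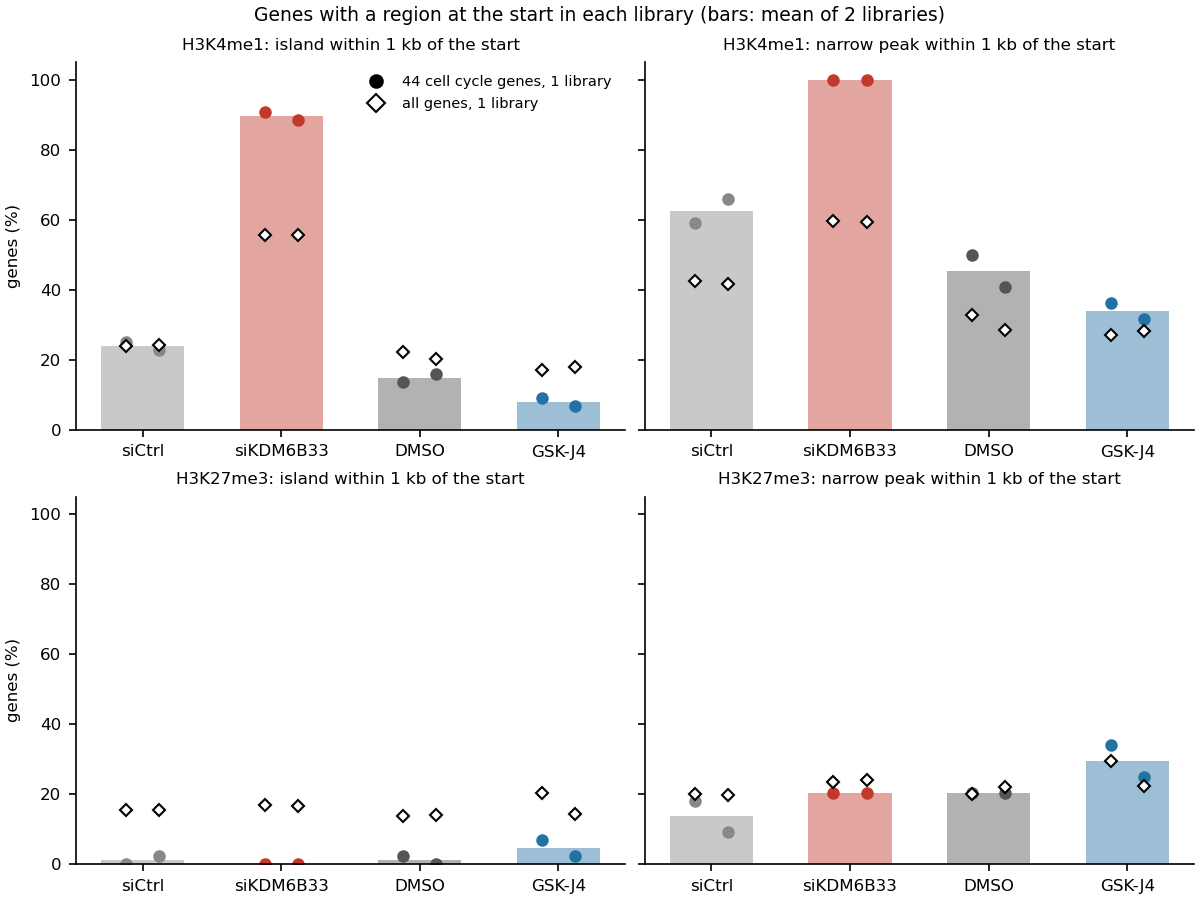
Percent of genes (y axis) with an island (left) or a narrow peak (right) within 1 kb of the start, for H3K4me1 (top) and H3K27me3 (bottom). Circles are the 44 genes in single libraries, bars their mean, and diamonds all genes in the same libraries; the siKDM6B33 libraries stand at 90.9% and 88.6% for H3K4me1 islands and 100% for narrow peaks.

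Narrow peaks gave the same direction at finer scale. A narrow H3K4me1 peak stood at the start of 26 and 29 genes in siCtrl and of all 44 in both siKDM6B33 libraries. Over all genes the share was 42.5% and 41.8% in siCtrl and 59.5% and 59.4% in siKDM6B33, so by narrow peaks the 44 genes, at 59.1% and 65.9%, stood above all genes in the controls as well. Since so many already had a peak, only 9 gained one (20.5%, where 10.9% of all genes were called), namely CCNE1, CDT1, MCM5, GINS2, BUB1, BUB1B, AURKA, PLK1 and CENPA, and none lost one (0.722%). The median summit of the strongest peak at the start, over the genes with a peak in that library, was 5 and 4 tags in siCtrl and 14 and 15 tags in siKDM6B33. Divided by the genome background of its library, this median was 55.4 and 47.1 in siCtrl and 131 and 143 in siKDM6B33, close to the 55.4 and 58.9 and the 131 and 133 of all genes with a peak. Gene by gene, the scaled summit was higher in both knockdown libraries at 19 of the 20 genes with a peak in all 4 libraries, which is 95%, against 87.2% of all such genes. The median ratio was 3.28 for the 44-gene list and 2.54 for all genes. These ratios leave out genes without a peak in some library.

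Around the MANE Select start, islands covered on average 20.4% and 22.7% of the 44 genes in siCtrl in the 200 bp bin just before the start, and 88.6% and 86.4% in siKDM6B33. The gain reached further into the gene than away from it. The bin centred 2100 bp downstream was covered in 4.55% and 9.09% in siCtrl and in 50.1% and 50.6% in siKDM6B33, while 2100 bp upstream the values were 4.01% and 4.55% against 18% and 20.4%. Over all genes in the knockdown libraries, coverage was 35.0% and 34.8% downstream and 17.9% in each library upstream. The islands that met a start ran from a median of 992.5 and 1093 bp before to 2179 and 2246 bp after the MANE Select start in siKDM6B33, with median widths of 3700 and 4200 bp, against 2800 bp in each siCtrl library. From the gene start, the nearest H3K4me1 island lay at a median distance of 42276.5 and 42223 bp in siCtrl and of 0 bp in both siKDM6B33 libraries, and over all genes at 49620 and 49925.5 bp and again at 0 bp.

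**Figure D3:**
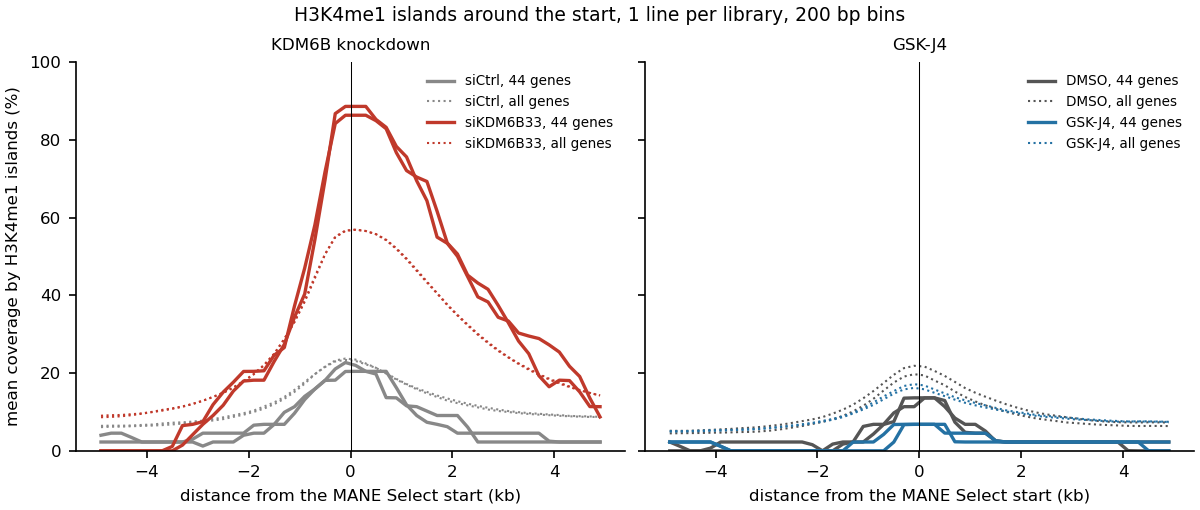
Mean percent of each 200 bp bin covered by H3K4me1 islands (y axis) against distance from the MANE Select start in kb (x axis), 1 line a library, solid for the 44 genes and dotted for all genes. In siKDM6B33 the 44 genes reach 88.6% and 86.4% at the start and fall off more slowly downstream than upstream, while in DMSO and GSK-J4 the 44 genes stay at or below 13.6%.

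Over the gene body with 5 kb each side, island coverage was called higher where both treated libraries lay above both controls and the means differed by at least 10 percentage points. An island of a given width is a larger percent of a short window, and windows ran from 14223 bp at CDC20 to 103097 bp at CENPE. By this rule 17 of 44 genes (38.6%) had higher H3K4me1 coverage after knockdown, where 19.9% of all genes were called, and none had lower coverage, where 3.55% were called. The differences ran from 10.4 to 43.6 percentage points. The lowest, MCM3, was 6.16 without siCtrl replicate 2. Without the threshold, both knockdown libraries lay above both controls at 35 genes (79.5%, against 46.4% of all genes) and below them at 1, MYBL2 (2.27%, against 9.66%). The median difference was 7.70 percentage points for the 44 genes and 1.06 for all genes. At equal covered length 16 of the 44 genes (36.4%) had higher window coverage, against 17.8% of all genes. In all, 31 genes were called at the start or over the window, 12 of them by both rules. The shares of all genes called by either or by both rules were not counted, so these numbers have no background.

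The 8 cyclins, CDKs and their phosphatase gained 6 start islands, and 5 had higher coverage over the window. CDK2, the kinase partner of cyclins E and A, was covered over 11.2% and 6.25% of its window in siCtrl and over 38.7% and 42.5% in siKDM6B33, a difference of 31.9 percentage points. Its siCtrl islands lay only in the 3′ flank, from 6236 and 6436 bp downstream of the start, and were 1800 and 1000 bp wide. In the knockdown libraries the flank island was 4200 bp wide in each, and a second island of 2000 and 2600 bp lay over the start. At equal covered length the difference was 17.5 percentage points and the start island was no longer called. CDK1, the kinase that drives mitosis, was free of islands in siCtrl and covered over 20.4% and 23.4% in siKDM6B33. Its strongest start peak had 5 and 6 tags in siCtrl and 39 and 37 tags in siKDM6B33, with summits 59 to 74 bp before the MANE Select start, among the motifs printed above.

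CCNA2, cyclin A2 of S and G2 phase, went from 0% in both controls to 27.5% and 12.6%. CCNB1, the mitotic cyclin B1, went from 0% in both to 16.1% and 10.4%. All these knockdown values lay above both controls, although the replicates of CCNA2 were far apart and its difference of 20.1 percentage points was 12.6 without siKDM6B33 replicate 1. CCNE2, cyclin E2, was covered over 8.18% and 0% in siCtrl and 15.6% and 18.6% in siKDM6B33, and its start already had an island in replicate 1 of siCtrl. CCNB2, a second B cyclin, and CDC25A, the phosphatase that activates CDKs, gained start islands with window differences of 4.34 and 8.48 percentage points.

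CCNE1, cyclin E1 of the G1 to S transition, was the exception among the cyclins. Its window was covered over 0% and 3.15% in siCtrl and 0% in both siKDM6B33 libraries. A narrow start peak of 5 tags was nevertheless present in each knockdown library and in neither siCtrl library. CCNE1, BUB1, BIRC5 and AURKB are genes the study itself names, so their islands are given for both marks in every library whatever their values, and they are not independent evidence of a direction.

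Among the 12 factors of replication origins, 5 gained a start island and 4 had higher coverage. MCM7, a helicase subunit, had the highest coverage of the group that was also called, 52.8% and 42.6% in siCtrl and 77.1% and 86.0% in siKDM6B33. In siCtrl 2 separate islands lay over its window in each library, and in siKDM6B33 a single island of 15200 and 17200 bp covered most of it. The start of MCM7 lies within 1 kb of that of AP4M1, so the islands cannot be assigned to either gene. MCM5, another subunit, went from 0% in both controls to 11.9% and 13.0%, with a start peak of 21 and 15 tags where siCtrl had none.

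MCM3 was covered over 13.0% and 4.54% in siCtrl and 18.1% and 20.1% in siKDM6B33, and had a start island in all 4 libraries. CDC6, which loads the helicase, was covered over 27.3% and 25.1% in siCtrl and 35.5% and 40% in siKDM6B33. The siCtrl islands of CDC6 began 14470 and 15070 bp downstream of its start and ran on into the neighbouring RARA, and the start itself was gained. CDT1, its partner in loading, was already covered over 71.5% and 62.1% in siCtrl, and 72.8% and 71.1% in siKDM6B33 did not stand apart. Its narrow start peak was gained all the same, with 27 and 36 tags.

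ORC1 of the origin recognition complex, MCM10 and GINS2 gained start islands with window differences of 3.37, 3.19 and 4.19 percentage points, and the groups of GINS2 overlapped. At equal covered length the difference of GINS2 turned to -8.79 and that of ORC1 was 0, with both start calls lost. MCM2 and MCM4 had start islands in all 4 libraries, with differences of 2.35 and 9.29. The start of GINS1 had an island in 1 control and in both knockdown libraries. MCM6 had an island only in replicate 1 of siKDM6B33, over 4.27% of its window. Its promoter held the most E2F core matches, although these overlap in pairs.

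Of the 5 genes of DNA synthesis, RRM1 and TOP2A gained start islands. PCNA, the sliding clamp of DNA polymerases, was covered over 18.5% and 12.9% in siCtrl and over 52.6% and 46.1% in siKDM6B33. The start of the PCNA gene lies within 1 kb of that of CDS2 and 6668 bp before the MANE Select start of PCNA, and the island that met it in all 4 libraries cannot be assigned to either gene. The islands that reached over the MANE Select start were 1200 and 1000 bp wide in siCtrl and 5200 and 4000 bp wide in siKDM6B33, and islands from 11872 and 12272 bp downstream of the gene start were found after knockdown alone. In GINS1, CENPA and KIF11 too the MANE Select start lies more than 5 kb into the gene, and their gene starts lie within 1 kb of those of ABHD12, SLC35F6 and IDE. RRM1, a subunit of ribonucleotide reductase, reached 7.01% and 6.27% from 0% in both controls. TOP2A, topoisomerase II alpha, reached 5.59% in each knockdown library from 0%. RRM2, the second reductase subunit, had overlapping groups, 6.53% and 12.3% against 11.1% and 10.1%. TYMS, thymidylate synthase, had no island in any of the 4 libraries and start peaks of only 6 and 5 tags after knockdown.

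FOXM1, a transcription factor of G2 and M phase genes, gained a start island and went from 0% in both controls to 7.46% and 10.2%. CHEK1, the checkpoint kinase, had the strongest rise in summit of these 3 genes, from 4 and 6 tags in siCtrl to 43 in each knockdown library, with coverage of 0% and 4.26% against 6.87% and 4.58%. MYBL2, a MYB factor that works with the MuvB complex, went the other way in coverage, 11.9% and 13.0% in siCtrl against 4.26% and 7.62%. Its island at the start stayed in all 4 libraries, from 2058 bp before to 1541 bp after the start in siCtrl replicate 1 and from 658 bp before to 1341 bp after in siKDM6B33 replicate 1. Its start peak still rose in tags, from 15 and 12 to 35 and 22.

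The 10 genes of mitotic kinases and the spindle checkpoint gained 8 start islands, and 6 had higher coverage. CDC20, the activator of the anaphase-promoting complex, had the largest difference in percent of the window, and also the shortest window, of the 44 genes. Its coverage was 20.2% in each siCtrl library against 61.0% and 66.6% in siKDM6B33, or 63.8% ± 3.98 (SD, n = 2). The siCtrl islands lay from 6349 bp downstream of its start, past its 3′ end. In siKDM6B33 a new island ran from 1251 bp before to 4548 bp after the start in replicate 1, and from 1051 bp before to 3148 bp after in replicate 2, which takes in the promoter printed above and much of the gene. The start peak had 6 and 4 tags in siCtrl and 40 and 28 in siKDM6B33.

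AURKA, a mitotic kinase of centrosomes, went from 0% in both controls to 33.4% and 18.8%, and its start peak of 14 and 15 tags had no counterpart in siCtrl. PLK1, the polo-like kinase, went from 0% in both to 24.7% in each knockdown library, with 9 and 7 tags at the start. AURKB, the kinase of the chromosomal passenger complex, went from 0% in both to 15.1% and 20.2%, and its start island was gained. Both of these calls on AURKB were lost at equal covered length, where no island was left over its window in any of the 4 libraries. As deposited, the knockdown replicates of PLK1 and AURKB lay close together, while those of AURKA were far apart. AURKA shares its start region with CSTF1.

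MAD2L1, a spindle checkpoint protein, had the strongest start peak of the whole list, with 22 and 26 tags in siCtrl and 81 and 73 in siKDM6B33. Its coverage was 11.3% and 8.48% against 29.2% and 32.0%, and its start had an island in all 4 libraries. NDC80, of the outer kinetochore, went from 0% in both controls to 12% and 9.80%. BUB1B and TTK, 2 kinases of the checkpoint, gained start islands with differences of 4.71 and 5.35 percentage points.

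BIRC5 (survivin), the partner of AURKB, shows how the window and the start can differ. Its coverage was 24.2% in each siCtrl library and 27% and 25.2% in siKDM6B33, a difference of 1.86 percentage points that turned at equal covered length, to 24.2% in each control against 14.0% and 18.6%, or -7.92. The siCtrl islands lay 8134 bp and more downstream, and after knockdown they were narrower there, 3000 and 4000 bp against 5200 bp in each control. At the start, coverage of the 1 kb on each side was 0% in both controls and 73.3% and 70.0% in siKDM6B33, with 4 and 6 tags against 17 in each. BUB1, the kinase that builds the checkpoint signal, had no island in any of the 4 libraries, but a start peak of 10 and 8 tags in siKDM6B33 and none in siCtrl.

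Of the 5 genes of centromeres and motors, CENPF, KIF11 and KIF20A gained start islands. KIF20A, a kinesin of cytokinesis, went from 0% in both controls to 23.2% and 27.4%, with 5 and 3 tags against 29 and 51. The start of KIF20A lies within 1 kb of that of BRD8, so its start island cannot be assigned to either gene. KIF11, the kinesin that separates spindle poles, reached 7.89% and 8.33% from 0%, and CENPF 8.12% and 8.68% from 0% and 2.24%. CENPA, the centromeric histone, was covered over 16.7% and 10.3% against 21.8% and 19.7%, and its start already had an island in 1 control. Its difference of 7.27 percentage points turned to -3.63 at equal covered length. CENPE had no island in any of the 4 libraries and start peaks of 4 tags in 1 control against 8 and 11 tags. MKI67 gained a start island and reached 8.05% and 8.55% from 0%.

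**Figure D4:**
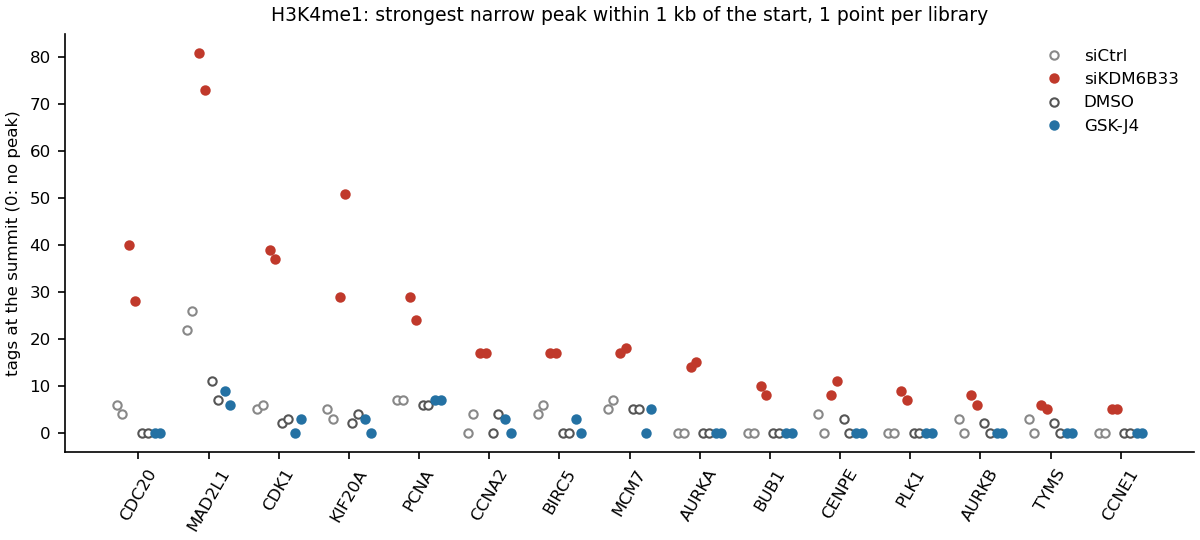
Tags at the summit of the strongest narrow H3K4me1 peak within 1 kb of the start (y axis; 0 where no peak was listed) for 15 of the genes (x axis), 1 point a library. In siKDM6B33 every gene shown lies above its 2 siCtrl libraries, from 5 tags at CCNE1 to 81 and 73 at MAD2L1, and tags are not scaled for depth.

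Counts by promoter feature are given as a description, and no difference between them was tested. At the start, islands were gained at 15 of the 17 genes with a CHR core and at 11 of the 27 without one, while over all genes the shares were 22.6% and 29.9%. They were gained at 10 of the 21 with an E2F core and at 16 of the 23 without one, and over all genes at 39.2% and 27%. With a CCAAT box 23 of 34 gained one and without it 3 of 10, against 30.1% and 28.5% of all genes. Over the window, coverage was higher at 7 of the 17 genes with a CHR core and 10 of the 27 without, at 9 of the 21 with an E2F core and 8 of the 23 without, and at 16 of the 34 with a CCAAT box and 1 of the 10 without. Over all genes the shares with and without the motif were 14.3% and 20.6% for the CHR core, 23.9% and 19% for the E2F core, and 22.2% and 18.5% for the CCAAT box. The median window difference was 8.82 percentage points with an E2F core and 5.59 without, the reverse of the order at the start. Of the 8 genes that had a start island in both controls, 4 are MCM subunits (MCM2, MCM3, MCM4 and MCM7), and the others are CDT1, PCNA, MYBL2 and MAD2L1. By the rule these 8 genes, and the 5 with a start island in 1 control, could not be called gained. Of the 12 genes whose start lies within 1 kb of that of another gene, 6 gained an island, and of the other 32 genes 20 did, where 45.1% and 25.7% of all such genes did. Among the 12 are ORC1 (near PRPF38A), MCM2 (TPRA1), MCM4 (PRKDC), FOXM1 (RHNO1 and TULP3), NDC80 (METTL4) and KIF20A (BRD8). Their start islands cannot be assigned to a single gene.

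The second comparison asked the same of GSK-J4, the compound. H3K4me1 islands stood at the start of 6 and 7 of the 44 genes in DMSO and of 4 and 3 in GSK-J4. None gained a start island, where 0.523% of all genes were called. At 3 genes (6.82%), where 2.16% of all genes were called, it was lost, namely MCM3, MCM7 and MYBL2. No gene had higher window coverage by 10 percentage points or more (3.02% of all genes) and none had lower coverage (1.8%). Narrow start peaks stood at 22 and 18 genes in DMSO (50% and 40.9%) and at 16 and 14 in GSK-J4 (36.4% and 31.8%), and over all genes at 32.9% and 28.6% in DMSO and 27.1% and 28.3% in GSK-J4.

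MCM3 was covered over 10.4% and 3.24% in DMSO and 0% in both GSK-J4 libraries. MCM7 was covered over 12.2% and 10.1% in DMSO and 18.3% and 0% in GSK-J4, where the island of replicate 1 lay 7563 bp and more downstream. MYBL2 was covered over 5.04% and 3.70% in DMSO and 0% in both GSK-J4 libraries. The islands lost were small, and only MYBL2 lost its narrow peak as well (1 of 44, 2.27%, where 2.63% of all genes were called). GINS2 alone gained a narrow start peak (2.27%, against 1.58%). MCM3 kept start peaks of 9 and 4 tags against 8 and 10 in DMSO.

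CCNE1 moved up by a small amount, from 1.36% and 0% to 4.94% in each GSK-J4 library, in an island 3898 to 7297 bp before the start. RRM2 and CENPA also lay higher in both GSK-J4 libraries, by 2.47 and 5.22 percentage points. With CCNE1 they make 3 of 44 genes (6.82%) that lay higher by any amount, where 10.3% of all genes were called, and MCM3 and MYBL2 are the 2 that lay lower (4.55%, against 7.99%). The other study-named genes did not stand apart. BIRC5 was covered over 14.0% and 17.7% in DMSO and 13.1% and 22.4% in GSK-J4, and BUB1 and AURKB had no island in any of the 4 libraries. At MCM3 the 2 treatments went in opposite directions against their own controls, but the difference between them was not tested. Of the 3 genes with the largest differences after knockdown in percent of the window, CDC20, MCM7 and PCNA, all had overlapping groups here. Coverage of CDC20 was 13.2% and 0% in DMSO against 0% and 17.4% in GSK-J4, and that of PCNA was 12% and 8.30% against 5.54% and 14.8%.

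**Figure D5:**
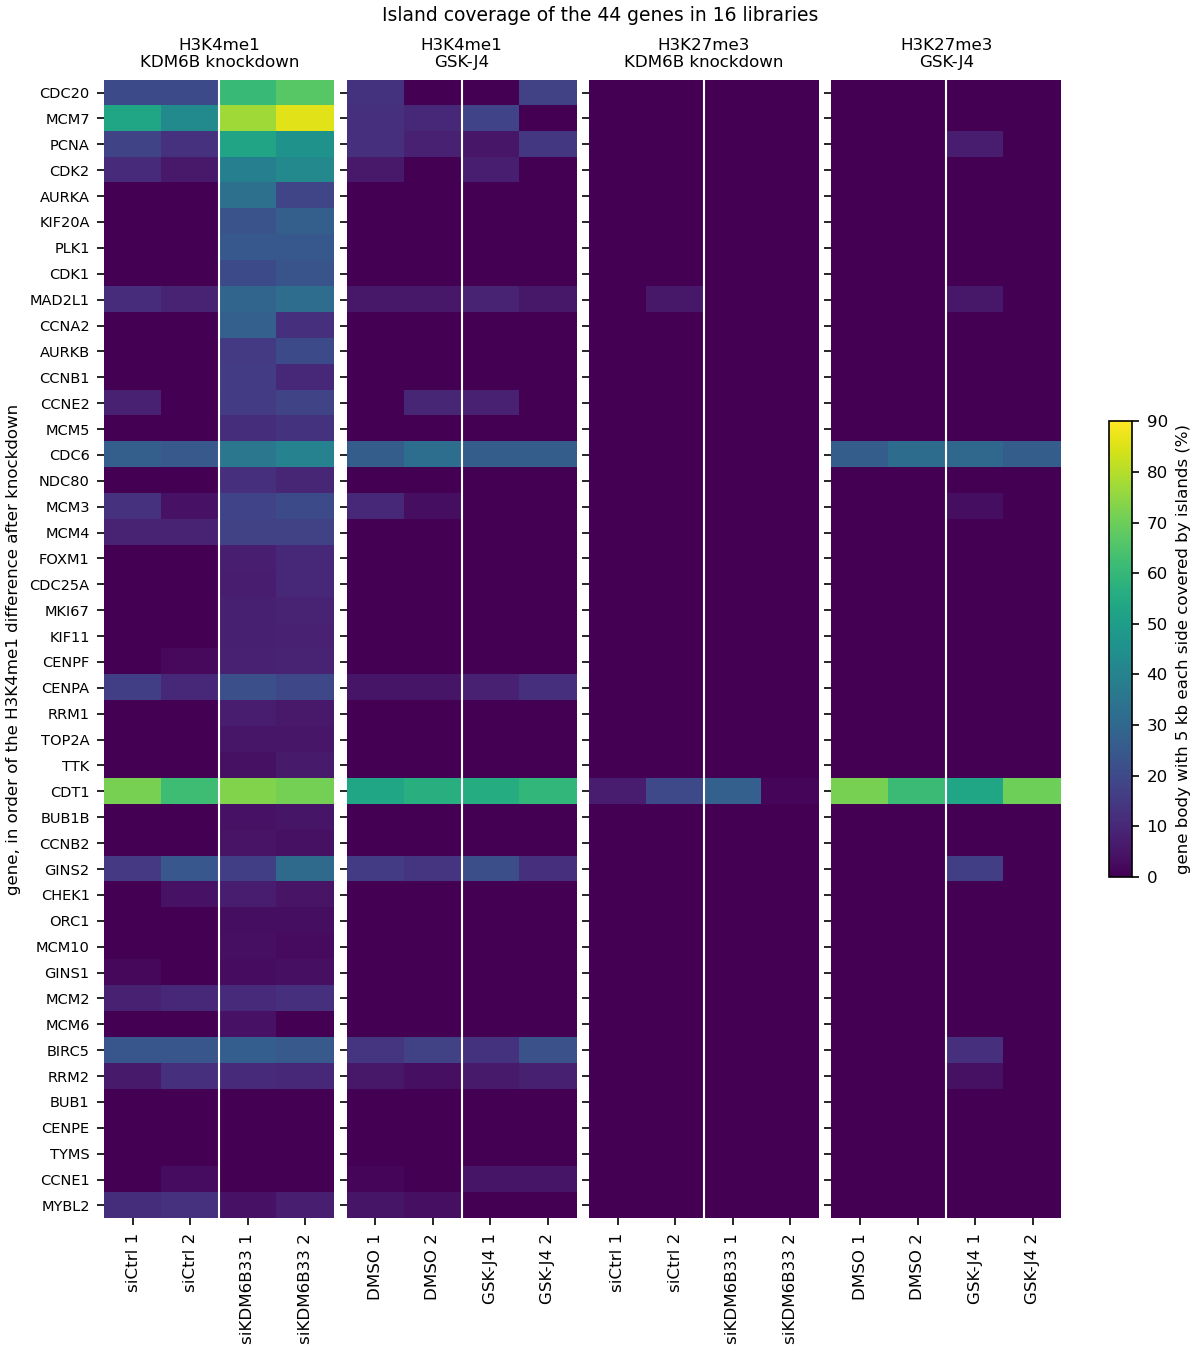
Percent of the gene body with 5 kb each side covered by islands (colour, 0 to 90%) for each of the 44 genes (rows, in order of the H3K4me1 difference after knockdown) in the 16 libraries (columns). CDC20 and MCM7 reach 61.0% to 86.0% in siKDM6B33, the GSK-J4 panel shows no such gain, and H3K27me3 is found at CDT1 and CDC6 and otherwise almost only in replicate 1 of GSK-J4.

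H3K27me3, the mark that KDM6B and the compound's targets remove, was asked for at the same genes. In the knockdown experiment an H3K27me3 island met the window of 1 and 2 of the 44 genes in siCtrl and of 1 in each siKDM6B33 library. No gene was called over the window, where 4.59% of all genes were higher and 0.523% lower, and none at the start, where 1.33% gained and 0.448% lost an island. CDT1 had coverage in every library, 6.89% and 19.8% in siCtrl and 27.6% and 1.72% in siKDM6B33, with a spread between replicates wider than any difference. MAD2L1 had an island over 5.65% of its window in replicate 2 of siCtrl. The other 42 genes had none in the 4 libraries.

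From the start of the 44 genes, the nearest H3K27me3 island lay at a median of 141204 and 137604 bp in siCtrl and 112638 and 113334 bp in siKDM6B33. Both knockdown medians were below both controls, as they were over all genes, 120615.5 and 120893 bp in siCtrl against 109179 and 109368 bp. Islands of this mark covered 89.8 and 87.3 Mb in the knockdown libraries and 53.7 and 54.2 Mb in siCtrl, and the part of this in the distances was not tested. The study-named genes CCNE1, BUB1, BIRC5 and AURKB were free of H3K27me3 islands in all 4 libraries. Narrow H3K27me3 peaks stood at the start of 8 and 4 genes in siCtrl (18.2% and 9.09%) and 9 in each siKDM6B33 library (20.5%). Over all genes such peaks stood at 19.9% and 19.8% of starts in siCtrl and at 23.5% and 23.9% in siKDM6B33. They were gained at CCNA2 and CDK1 (2 of 44, 4.55%, where 2.39% of all genes were called) and lost at MCM7 (1 of 44, 2.27%, where 0.891% were called). These peaks had 2 or 3 tags at the summit, so they rest on few reads.

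With GSK-J4 no gene was called either, where 1.85% of all genes were higher and 1.51% lower over the window, and 0.757% gained and 0.154% lost a start island. Islands met the window of 2 genes in each DMSO library, CDT1 and CDC6, and of 8 and 3 in GSK-J4. Coverage of CDT1 was 71.5% and 61.2% in DMSO and 53.0% and 70.2% in GSK-J4, and that of CDC6 was 26.5% and 31.8% against 30.3% and 26.5%. Both overlapped between groups. In the same 4 libraries the neuroblastoma markers TH, PHOX2A and DBH, which carry H3K4me1 in every library, were also covered by H3K27me3, over 94.4% to 100%, 43.4% to 75.2% and 50.9% to 56.3% of their windows. H3K27me3 covered 95.6% of the amplified MYCN in all 8 libraries of the mark, the same value as H3K4me1. In siCtrl, H3K27me3 covered 0% of PHOX2A, HAND2, GATA3, ISL1, TH and DBH. The part of this in the values of CDT1 and CDC6 was not tested. In these 4 libraries 74.1% to 100% of the H3K27me3 length at these 2 genes lay inside H3K4me1 islands of the library with the same group and number.

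Among the 4 libraries of the compound experiment, only replicate 1 of GSK-J4, the one with the most islands, had H3K27me3 islands at MCM3, GINS2, RRM2, PCNA, MAD2L1 and BIRC5, over 3.24% to 16.8% of the window. Replicate 2 had none at these 6 genes. BIRC5 was covered over 12.1% in replicate 1 of GSK-J4 and over 0% in the other 3 libraries, and CCNE1, BUB1 and AURKB were at 0% in all 4. The GSK-J4 replicates thus differed from each other at these genes. If replicate 2 is left out, 3 genes gain a start island (MCM3, PCNA and MAD2L1), 2 are higher over the window (GINS2 and BIRC5) and 1 is lower (CDT1). Narrow start peaks were gained at CCNA2, TOP2A and KIF20A (3 of 44, 6.82%, where 2.83% of all genes were called), with summits of 2 to 4 tags. PCNA and MAD2L1 had narrow H3K27me3 start peaks in all 8 libraries of the mark, with summits of 3 to 7 tags.

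The genes that act upstream of these targets were followed as a list of 29: E2F and DP factors, the RB family, D cyclins with CDK4 and CDK6, CDK inhibitors and MuvB subunits. After knockdown 11 of the 29 (37.9%) gained an H3K4me1 start island and 11 had higher window coverage, with none lost or lower, against 29.1% and 19.9% of all genes. CDKN2C (p18), an inhibitor of CDK4 and CDK6, went from 0% in both controls to 38.5% and 53.2%. CDKN1B (p27) went from 14.9% in each control to 54.3% and 51.8%, and E2F6, a repressor of the family, from 0% in both to 27% in each knockdown library. E2F7 and E2F8, atypical repressors of the family, had no island of either mark in any library.

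CDK4, the kinase that phosphorylates the retinoblastoma protein, was called for both marks. It is the 1 gene of the 29 (3.45%) with lower H3K27me3 coverage after knockdown, where 0.523% of all genes were called, and the 1 with a start island of that mark lost (0.448% of all genes). No gene of the 29 had higher H3K27me3 coverage or gained a start island, and with GSK-J4 none was called for this mark in either direction. Its H3K4me1 coverage went from 37.2% and 36.1% to 61.2% and 66.7% after knockdown, and its H3K27me3 coverage from 12% and 13.1% to 0% in both, with the island at the start lost. With GSK-J4 the H3K27me3 groups of CDK4 overlapped, 41% and 30.6% against 36.1% and 44.2%. For H3K4me1, coverage with GSK-J4 was lower by the rule at 3 of the 29 genes (10.3%, where 1.8% of all genes were called), namely CCND1 (85.4% and 72.9% against 66.0% and 66.9%), CDKN1B (17.5% and 10.2% against 0% and 5.12%) and CDKN2D (11.1% and 25.4% against 0% and 7.94%). It was higher at 1 gene (3.45%, against 3.02%), E2F4 (36.6% and 23.5% against 55.7% and 46.2%). The start island was nevertheless lost at E2F4, as at E2F2 and LIN52 (3 of 29, 10.3%, against 2.16% of all genes), and none was gained.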

How the data were processed

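CUT&Tag libraries of BE2C cells were analysed from the region lists of single libraries. Groups and replicate numbers came from the sample titles. The 44 genes and the other lists were chosen with earlier results of these data known. Per the labels and the study's methods, the authors trimmed reads with Trim Galore 0.4.4, aligned them to hg19 with BWA 0.7.12, marked duplicates with Picard 1.65, kept fragments of 150 to 2000 bp with SAMtools 1.3.1, and called islands with SICER 1.1 (window 200 bp, gap 600 bp, effective genome 0.86, FDR 1e-05) and narrow peaks with MACS2 at q 0.05 (version 2.1.1 in the labels), library by library; bedtools 2.25.0 is also listed. The deposited island lists give a score, which was used only to rank islands. The deposited narrow peak lists give a fold enrichment (a ratio) and −log10 p and −log10 q against the background of the same library. Reads per region and the spike-in scaling were not used here, so no count model was fitted, and a call depends on the depth of its library.

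Coverage was computed with NumPy 2.4.6 and SciPy 1.17.1 (Python 3.11.15), tables with pandas 2.3.3 and plots with matplotlib 3.10.9, on GENCODE 44 lifted to hg19. Regions met a start by at least 1 bp. Summit tags and background were solved together from fold and −log10 p, and the genome background is the lowest among the 20 commonest pairs. Scripts were tested on simulated data. Every one of the 44 genes is accounted for; those given in every library are CCNE1, BUB1, BIRC5 and AURKB and, per comparison, called genes, the largest differences first, with other genes added after their values were seen. No set test was run. The alternatives were other thresholds, windows, starts, island and peak filters, equal covered length, a replicate block and leaving out each library. Outside the replicate block, libraries of the same number were not treated as pairs, and the labels do not say whether they were. Deviations of same-numbered libraries correlated at -0.047 to 0.079 over 20090 genes, which does not settle how the libraries were made. Some cell type markers are not reported here.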

Additional observations from a re-analysis of the deposited data

How the results depend on the processing

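After knockdown, the 26 gained H3K4me1 starts numbered 20 to 27 under other windows, other starts, a stricter overlap with the window, equal covered length and narrow peaks of −log10 q of at least 5; the last gave 23, of which only 15 were among the 26. The MANE Select start and an equal number of narrow peaks were alternatives chosen after seeing the data. Narrow peaks gave 9, and an equal number of them also gave 9, with 5 of the 26 shared, since most starts already had a peak. Higher coverage was called at 27 genes with 5 percentage points and at 10 with 20, and at 16 to 18 otherwise, and lower coverage at 1 with 5. With GSK-J4, a threshold of 5 gave 1 gene with higher and 1 with lower H3K4me1 coverage; narrow peaks gave 1 gained and 1 lost start, an equal number of them 1 gained, and narrow peaks of −log10 q of at least 5 gave 0 lost in place of 3. For H3K27me3, narrow peaks gave 2 gained and 1 lost start after knockdown and 3 gained starts with the compound; an equal number of them gave 1, 1 and 2.

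Leaving out 1 library at a time gave 15 to 19 genes with higher H3K4me1 coverage after knockdown and 26 to 29 gained starts. By the rule, leaving out a library can add gained or lost starts but cannot remove any. For H3K27me3 after knockdown it gave 0 to 1 higher (CDT1, without siKDM6B33 replicate 2), 0 to 1 lower (CDT1, without siKDM6B33 replicate 1) and 0 to 1 lost (MAD2L1, without siCtrl replicate 1). For H3K27me3 with GSK-J4 it gave 0 to 2 higher, 0 to 1 lower and 0 to 3 gained, each without GSK-J4 replicate 2. For H3K4me1 with GSK-J4 it gave 0 to 1 higher (CDC20) and 0 to 1 lower (MCM7), each without GSK-J4 replicate 1, and MCM3 was lower without DMSO replicate 2. A lone library was taken at face value. With the replicate block, which asks for the same direction in both same-numbered pairs, 17 genes were higher, 26 gained a start and 3 lost one with GSK-J4, as without it. By construction the block cannot drop a called gene, and for starts it is the same rule as the main one. None of the 17 called coverage differences reversed in 119 refits, while 3 of the 44 genes, GINS2, BIRC5 and CENPA, none of them called over the window, turned from higher to lower at equal covered length. Of these refits 68 left out 1 library, where the call rule itself allows no reversal. Of the 17, AURKB went from 17.6 percentage points to 0 at equal covered length, and CDK2 from 31.9 to 17.5 there and to 15.6 over the gene body without flanks. Leaving out 1 library took 4 below 10, MCM3 (6.16 without siCtrl replicate 2), CCNE2 (8.92 without siCtrl replicate 2), CDC6 (9.34 without siKDM6B33 replicate 2) and NDC80 (9.80 without siKDM6B33 replicate 1), and CCNA2 from 20.1 to 12.6 without siKDM6B33 replicate 1. With all libraries kept, 16 values moved and 35 did not. H3K27me3 start summits in the text held 2 to 7 tags.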

Other observations

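Genes outside the cell cycle also gained H3K4me1 at their starts after knockdown. Of 85 ribosomal protein genes, which are active in every cell, 46 (54.1%) gained a start island, against 29.1% of all genes, and 63 (74.1%) had higher window coverage, against 19.9%. Of 39 HOX genes, classic Polycomb targets, 11 (28.2%) gained a start island, which is no more than the 29.1% of all genes. Window coverage was higher at 25 of them (64.1%), against 19.9%. The lists were not matched with each other for window length. None of these 124 genes lost a start island or had lower coverage, where 0.752% and 3.55% of all genes did. A gain at the start was thus found in a share of ribosomal protein genes close to the 59.1% of the cell cycle genes, although 20.0% of their promoters held an E2F core, against 47.7%; no test of this difference was run.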
